A study of Homo sapiens with 4 samples.

Results

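The zinc finger genes of chromosome 19 were followed in LX-2 cells, an immortalized human hepatic stellate cell line, after transfection of a miR-6133-5p mimic or of miControl, a negative control mimic. Members were the protein-coding genes of chromosome 19 whose symbol is ZNF followed by a number and at most 1 letter, chosen by their counts, which had to reach 10 in each of the 4 libraries. Of 246 genes with such a symbol, 244 had a row in the count table, and 219 passed the floor, out of 63677 genes in the table. Both groups received the mimic at 20 nM by lipofection and, 24 h later, 5 ng/mL of recombinant human TGF-β1, the cytokine that drives stellate cells to make matrix. RNA was collected 24 h after that, from 2 libraries per group. No library lacked the cytokine or the transfection, so the comparison is between mimics in TGF-β1-treated cells of 1 line. The labels do not say whether the 2 libraries of a group came from separate cultures, so p-values measure the spread between these libraries, which may be technical.

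Most ZNF genes of chromosome 19 encode C2H2 zinc finger proteins, in which pairs of cysteines and histidines hold a zinc ion and each finger reads a few bases of DNA. Many also carry a KRAB domain, which binds TRIM28 (KAP1) and through it the histone methyltransferase SETDB1 and HP1 proteins, so that the bound DNA, often a retrotransposon, is packed into silent chromatin. The family grew by tandem duplication and its genes lie in clusters along the chromosome. Messenger RNAs of the family are usually scarce.

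The repeated build of these genes is visible in the DNA that joins neighbouring fingers. In the coding sequences of the GRCh37 annotation, 215 of 216 members that could be read held at least 1 finger at the C2H2 spacing, with a median of 12, whereas 3.61% of 19894 protein-coding genes held one. The linker that joins a finger to the next was found in 184 of the 216 members. The first linker of the gene, in a stretch of 27 bases, is shown for 7 of the members. Among them are ZNF480 and ZNF611, which lie in the same cluster and have the same first linker. Capitals mark the bases that code the conserved linker, and the lower case bases belong to the fingers on either side.
ZNF583, chr19:56934727-56934753, plus strand: catACTGGAGAGAAACCCtatgcatgt
ZNF480, chr19:52825260-52825286, plus strand: catACTGGAGAGAAACCTtacaaatgt
ZNF611, chr19:53209192-53209218, minus strand: catACTGGAGAGAAACCTtacaaatgt
ZNF493, chr19:21606572-21606598, plus strand: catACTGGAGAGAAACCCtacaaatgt
ZNF569, chr19:37904912-37904938, minus strand: catACTGGAGAGAAGCCCtatgaatgt
ZNF136, chr19:12297845-12297871, plus strand: cacACTGGAGAGAAACCCtatgaatgt
ZNF837, chr19:58879521-58879547, minus strand: cacACCGGCGAGAAGCCCtacgcgtgc
The 27 bases shown for ZNF480 and ZNF611 were the same, and 29 genes held them, 25 of them members. Those of ZNF583 and of ZNF837 were each found in 1 gene, and those of ZNF493 in 33 genes. Longer stretches were shared by fewer genes: 165 of 216 members shared no window of 100 transcript bases with a gene elsewhere in the genome, and 8 shared over 10% of their windows. With genes annotated over the same stretch of the chromosome, 90 of the 216 shared windows, 36 of them over 10%. Read pairs that mapped to too many places made up 1.24% to 1.36% of the input pairs.

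Library totals were 51862006 and 57903388 counts with miControl and 61747010 and 93811213 with miR-6133-5p. The members took 0.210% and 0.224% of the counts with miControl and 0.251% and 0.250% with miR-6133-5p. The median member had 371, 439, 538 and 849 counts in the 4 libraries, in the same order. Of 10 stellate cell markers, 6 were at 1 CPM (counts per 1e6 scaled counts) or more in every library, including VIM, PDGFRB and COL1A1, while DES, LRAT, GFAP and HAND2 stayed under 1 CPM. Hepatocyte markers were under 1 CPM in 4 of 5 cases, with SERPINA1 at 1.97 to 2.78 CPM. None of the endothelial, leukocyte and epithelial markers that could be read reached 1 CPM in every library. The endothelial marker PECAM1 was not found in the count table.

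Between miR-6133-5p and miControl, the zinc finger genes of chromosome 19 moved little. The median log2 fold change of the 219 members, miR-6133-5p over miControl, was 0.07 (0.02 to 0.10 in the fits without 1 of the libraries), and 131 members were above 0 and 88 below. Their summed level was 2211 and 2387 CPM with miControl and 2369 and 2364 CPM with miR-6133-5p after scaling by TMM (trimmed mean of M values), so the sums overlapped. In bulk RNA, fewer cells of a type and less RNA per cell cannot be told apart. A member was called when edgeR's quasi-likelihood test gave an adjusted p under 0.01 and the log2 fold change was beyond 0.8. By this rule 1 member was lower, ZNF583, where 5.54% of the 18252 tested genes were called lower, and 2 were higher, ZNF428 and ZNF480, where 2.90% of the tested genes were. The share of members called was thus below the background in both directions. The members were also scarcer and measured with less precision. Their median level was 8.11 CPM and their median SE 0.151, against 10.2 CPM and 0.144 over all tested genes. Protein-coding genes with at least 10 counts in each library were at 26.0 CPM and 0.120. How far this lowered the shares of members that passed or separated was not tested. With library totals alone 1 member was called lower and 6 higher. Without miR-6133-5p replicate 2 the members called lower numbered 6, and without miControl replicate 1 none was called higher. None of the 3 passed a test against the fold change limit itself (edgeR glmTreat, adjusted p = 0.162, 0.871 and 1.00 for ZNF583, ZNF428 and ZNF480).

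With the adjusted p limit set at 0.05 and no limit on the fold change, 13 members were lower (5.94%), against 16.1% of tested genes, and 29 were higher (13.2%), against 14.1%. The share of higher members was thus close to that of all tested genes. Among protein-coding genes with at least 10 counts in each library 19.6% were lower and 17.98% higher, and among ZNF genes of other chromosomes 11.5% were lower and 17.6% higher. In 44 members the 2 groups were apart with miR-6133-5p lower, and in 74 they were apart with miR-6133-5p higher. The same separation was seen in 31.3% of tested genes downward and 33.2% upward, and in 64.4% in either direction, against 53.9% of the members.

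The spread of the fold changes was narrower in the members than in other genes. Their interquartile range was 0.455 on the log2 scale, and 2.74% of members lay beyond 0.8 in either direction. Among 12888 protein-coding genes with at least 10 counts in each library, the interquartile range was 0.599 and 13.0% lay beyond 0.8. The 715 other protein-coding genes of chromosome 19 had an interquartile range of 0.653 and a median of 0.12. ZNF genes of other chromosomes, 227 in number, came closer to the members, with an interquartile range of 0.498, a median of 0.06 and 7.49% beyond 0.8, and 7 of them were called lower and 6 higher. These are descriptions of gene lists, and the difference between lists was not tested.

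**Figure D1:**
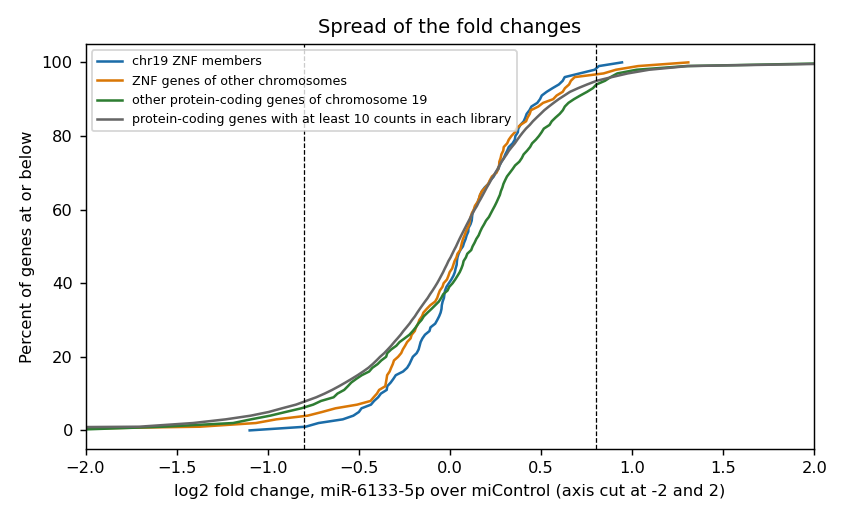
Cumulative share of genes (vertical axis, percent) at or below each log2 fold change of miR-6133-5p over miControl (horizontal axis), for 4 gene lists, with dashed lines at the fold change limits of -0.8 and 0.8. The members' curve is steeper than the curve of protein-coding genes with at least 10 counts in each library, with interquartile ranges of 0.455 and 0.599.

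ZNF583, at chr19:56909335-56947404 on the plus strand, had the largest fall among the members. It encodes a protein with 12 fingers. Its level was 13.9 and 14.8 CPM with miControl and 7.46 and 5.96 CPM with miR-6133-5p. The miR-6133-5p libraries lay well below both controls, and the log2 fold change was -1.10 (SE 0.142, edgeR adjusted p = 7.2e-05, n = 2 per group). In fits without 1 of the libraries the log2 fold change was -1.28 to -0.96 and passed the limits, but each such fit takes its spread from the group that keeps 2 libraries and assumes that the lone library varies alike. ZNF667, the next member along the chromosome and on the opposite strand, went the other way, from 7.44 and 9.31 CPM to 13.5 and 11.9 CPM, a log2 fold change of 0.60 (edgeR adjusted p = 0.00664).

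ZNF480, at chr19:52800422-52829175 on the plus strand, encodes 10 fingers. Its level was 10.4 and 12.1 CPM with miControl and 19.4 and 20.3 CPM with miR-6133-5p. The groups did not overlap, and the log2 fold change was 0.82 (SE 0.124, edgeR adjusted p = 0.000257). The call did not hold without miControl replicate 1 (log2 fold change 0.71) or without miR-6133-5p replicate 2 (0.77).

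ZNF428, at chr19:44111376-44123781 on the minus strand, has a single finger at the spacing searched and no linker, unlike most members. Its level was 4.64 and 4.02 CPM with miControl and 9.48 and 7.21 CPM with miR-6133-5p, and the log2 fold change was 0.94 (SE 0.172, edgeR adjusted p = 0.00104). In this gene 32.1% of the exon bases overlap a gene on the opposite strand. As the strand setting of the counting is not given in the sources used here, reads of the 2 genes may not have been kept apart. Of the 219 members, 75 had some exon overlap with a gene on the opposite strand, in 25 of them over 10%. The limit is thus not particular to ZNF428. The call was lost without either miControl library (log2 fold changes 1.04 without replicate 1 and 0.82 without replicate 2) and without miR-6133-5p replicate 1 (0.72).

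ZNF714 fell just short of the fold change limit. Its level was 31.3 and 36.0 CPM with miControl and 16.3 and 22.3 CPM with miR-6133-5p, with a log2 fold change of -0.80 (SE 0.144, edgeR adjusted p = 0.000962). The unrounded value missed the limit of 0.8 by less than rounding shows, and ZNF714 was called lower with RLE size factors (-0.81), with DESeq2 and when miR-6133-5p replicate 2 was left out (log2 fold change -1.06). A further 3 members lay beyond 0.8 without a call: ZNF497 at -0.93, ZNF837 at 0.92 and ZNF784 at 0.80. ZNF497 and ZNF784 were picked out after their values were seen.

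**Figure D2:**
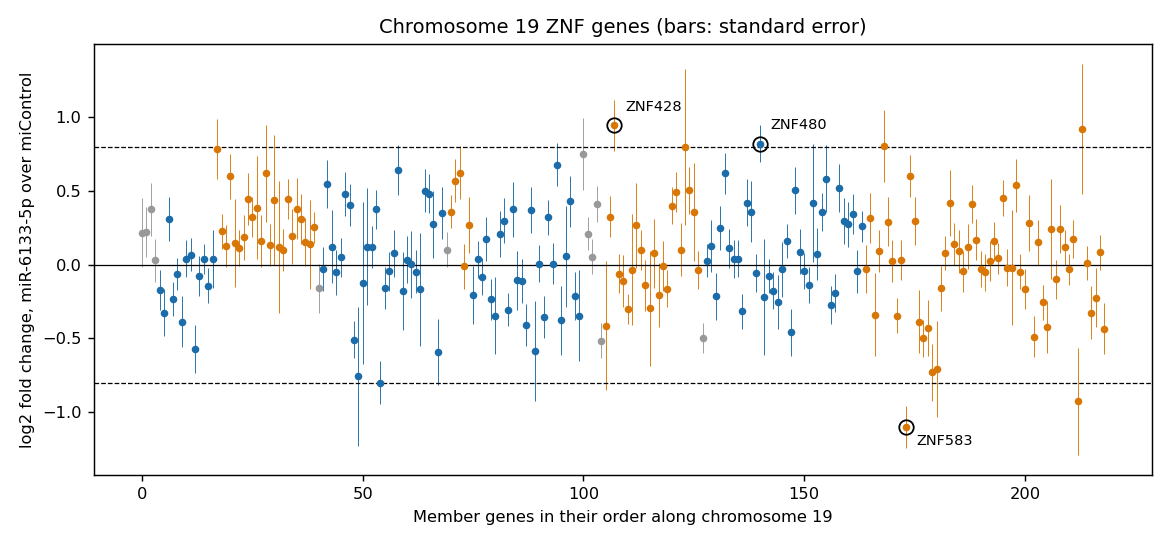
Log2 fold change of miR-6133-5p over miControl (vertical axis, bars are standard errors) for the 219 members in their order along chromosome 19 (horizontal axis). Blue and orange alternate between the 8 clusters with at least 5 members, grey points lie outside them, dashed lines mark -0.8 and 0.8, and circles mark the 3 called members, which lie in 3 different clusters.

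Along the chromosome, genes were placed in 1 cluster until a gap of more than 1 Mb, which gave 8 clusters with at least 5 members and 12 members outside them. Cluster medians ran from -0.08 to 0.36, and the members of most clusters fell on both sides of 0. Neighbours were hardly more alike than members in general: the log2 fold changes of 205 adjacent pairs differed by a median of 0.302 and 54.6% of the pairs had the same direction, against 0.325 and 51.7% over all pairs of members.

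The cluster at 11.6 to 12.8 Mb was the exception. All its 23 members were above 0, from 0.10 for ZNF136 to 0.79 for ZNF653, with a median of 0.23. Across all members 131 of 219 were above 0. In 14 of the 23 the 2 groups did not overlap, each time with miR-6133-5p higher, and in 9 they overlapped. The same upward separation was seen in 33.2% of tested genes, a smaller share. At an adjusted p under 0.05, 3 of the 23 were higher, none past the fold change limit. As 14.1% of tested genes were higher at 0.05, the number of passing members was near the background. The summed level of the cluster was 154 and 169 CPM with miControl and 200 and 188 CPM with miR-6133-5p. ZNF653, which has 2 fingers at the spacing searched, was at 1.95 and 2.20 CPM with miControl and 3.29 and 3.87 CPM with miR-6133-5p (log2 fold change 0.79, SE 0.204, edgeR adjusted p = 0.0103). In 9 of the 23 members over 10% of the exon bases overlap another gene on the same strand, from 12.9% in ZNF799 and 14.6% in ZNF653 to 83.2% in ZNF625, and reads there may be split or lost in the counting. The 11 members with no exon overlap on the same strand at all had a median log2 fold change of 0.19.

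ZNF441 was at 5.59 and 7.38 CPM with miControl and 9.60 and 10.1 CPM with miR-6133-5p (0.60, edgeR adjusted p = 0.0102). ZNF44 was at 13.4 and 13.0 CPM against 20.3 and 15.8 CPM (0.45, edgeR adjusted p = 0.0246). Both were therefore separated between groups. The other 20 members of this cluster did not pass at 0.05, and the smallest differences, as in ZNF136 at 10.01 and 13.1 CPM against 12.1 and 12.7 CPM, lay within the spread of the libraries. A pair of genes of this cluster under the count floor, ZNF709 and ZNF564, had 9, 16, 36 and 41 and 7, 13, 29 and 24 counts, with log2 fold changes of 0.99 and 0.81 that did not pass the test. The direction was the same in all 23 members with RLE size factors, with library totals alone and with DESeq2, in 21 without miControl replicate 1, in 20 without miR-6133-5p replicate 1 and in 21 without miR-6133-5p replicate 2. The 4 other protein-coding genes inside the cluster ran from -0.39 to 0.88, with 3 above 0. Members of a cluster share the same 4 libraries, so their common direction is not the sum of independent observations.

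The small cluster at 35.2 to 35.5 Mb, with 5 members, had a median of 0.36, and 3 members passed at an adjusted p under 0.05, all higher, where 14.1% of tested genes were higher and 16.1% lower. ZNF599 was at 3.44 and 3.23 CPM with miControl and 5.69 and 4.62 CPM with miR-6133-5p (0.62, edgeR adjusted p = 0.0173). ZNF181 was at 7.14 and 8.10 CPM against 12.4 and 10.3 CPM (0.57, edgeR adjusted p = 0.00916), and ZNF302 at 23.6 and 25.8 CPM against 33.7 and 29.7 CPM (0.36, edgeR adjusted p = 0.0295). In these 3 genes, already picked as passing at 0.05, the groups did not overlap. The same upward separation was seen in 33.2% of tested genes. ZNF30, a neighbour of these 3 members, was at 5.59 and 5.95 CPM against 5.995 and 5.48 CPM, and its groups overlapped.

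The cluster at 19.8 to 24.3 Mb, in the band nearest the centromere on the short arm, held 28 members out of 37 genes of the family, with a median of 0.04 that became -0.04 without miControl replicate 1. At an adjusted p under 0.05, 7 were higher and 2 lower, against 14.1% and 16.1% of tested genes. Among the higher was ZNF91, a known repressor of SVA retrotransposons, which went from 14.4 and 19.002 CPM to 21.4 and 25.9 CPM (0.50, edgeR adjusted p = 0.0195). ZNF675 went from 17.5 and 23.2 CPM to 29.3 and 27.6 CPM (0.48, edgeR adjusted p = 0.0156). ZNF493 had the highest value of the cluster, from 2.97 and 3.25 CPM to 4.86 and 4.85 CPM (0.64, edgeR adjusted p = 0.0121). The lower ones were ZNF714, given above, and ZNF486, from 14.9 and 14.7 CPM to 10.98 and 9.88 CPM (-0.51, edgeR adjusted p = 0.00719).

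The same cluster held most of the silent genes. Between 22.1 and 22.7 Mb, ZNF208, ZNF257, ZNF676 and ZNF729 had no count in any library and ZNF98 had 0, 4, 5 and 3. ZNF99, ZNF723 and ZNF728, farther along the same cluster, also had no count. Over the whole chromosome 25 genes of the family with a row were under the floor, 11 of them at 0 in all 4 libraries. Of these 25, 5 were under 10 counts with miControl only, and none with miR-6133-5p only. The floor is set on raw counts, and both miR-6133-5p libraries were deeper than the miControl libraries, so this split does not compare levels. The members nearest the floor were ZNF626, with 10, 23, 14 and 35 counts, and ZNF233, with 14, 12, 18 and 58. Just under it were ZNF709 and ZNF296, the latter with 10, 8, 28 and 20 counts.

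The 13 members at 7.1 to 9.9 Mb had a median of -0.07 and 8 were below 0. ZNF426 was the only one to pass at an adjusted p under 0.05, from 12.7 and 13.3 CPM with miControl to 7.10 and 10.3 CPM with miR-6133-5p (-0.57, edgeR adjusted p = 0.0178). The highest value there was that of ZNF414, at 0.31. At 36.7 to 38.3 Mb, 25 members had a median of -0.08. ZNF569 was higher, from 8.28 and 10.997 CPM to 16.4 and 14.5 CPM (0.68, edgeR adjusted p = 0.00358), and ZNF568, whose mouse counterpart silences a placental Igf2 transcript, was lower, from 7.38 and 7.18 CPM to 5.43 and 5.55 CPM (-0.41, edgeR adjusted p = 0.0475). ZNF585A had the lowest value, -0.58, from under 1 CPM in every library, and did not pass the test.

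The 22 members at 44 to 45.6 Mb were split evenly, with 11 above and 11 below 0 and a median of 0.03, or -0.05 without miControl replicate 1. Beside ZNF428, ZNF226, ZNF227 and ZNF112 were higher at an adjusted p under 0.05, with log2 fold changes of 0.40, 0.49 and 0.50. ZNF45 was lower, from 48.5 and 50.2 CPM to 39.8 and 40.5 CPM (-0.30, edgeR adjusted p = 0.0395). ZNF575 had the lowest value, -0.41, at 0.306 to 0.570 CPM, which did not pass the test.

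The cluster at 52.1 to 54.1 Mb, with 36 members, had a median of 0.08. Beside ZNF480, the higher members at an adjusted p under 0.05 included ZNF350 (ZBRK1), a partner of BRCA1, which went from 5.84 and 6.63 CPM to 9.85 and 9.32 CPM (0.62, edgeR adjusted p = 0.00469). The first linker of ZNF611 is the same as that of ZNF480, a sequence held by 29 genes. ZNF611 moved in the opposite direction to ZNF480, from 10.8 and 11.1 CPM to 6.62 and 9.21 CPM (-0.46, edgeR adjusted p = 0.0429). The 55 members at 56.0 to 59.0 Mb had a median of 0.02, and 5 passed at 0.05 in each direction, against 14.1% of tested genes higher and 16.1% lower. The median was -0.04 without miControl replicate 2 and -0.03 without miR-6133-5p replicate 2. ZNF805 was among the lower ones, from 9.38 and 9.11 CPM to 4.22 and 6.84 CPM (-0.73, edgeR adjusted p = 0.0117), and ZNF71 and ZNF587B fell by 0.50 and 0.49 on the log2 scale. ZNF211 and ZNF419 were among the higher ones, at 0.45 and 0.41. ZNF837 had the highest value, 0.92, but at 0.294 to 0.746 CPM it did not pass the test (SE 0.443, edgeR adjusted p = 0.140).

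**Figure D3:**
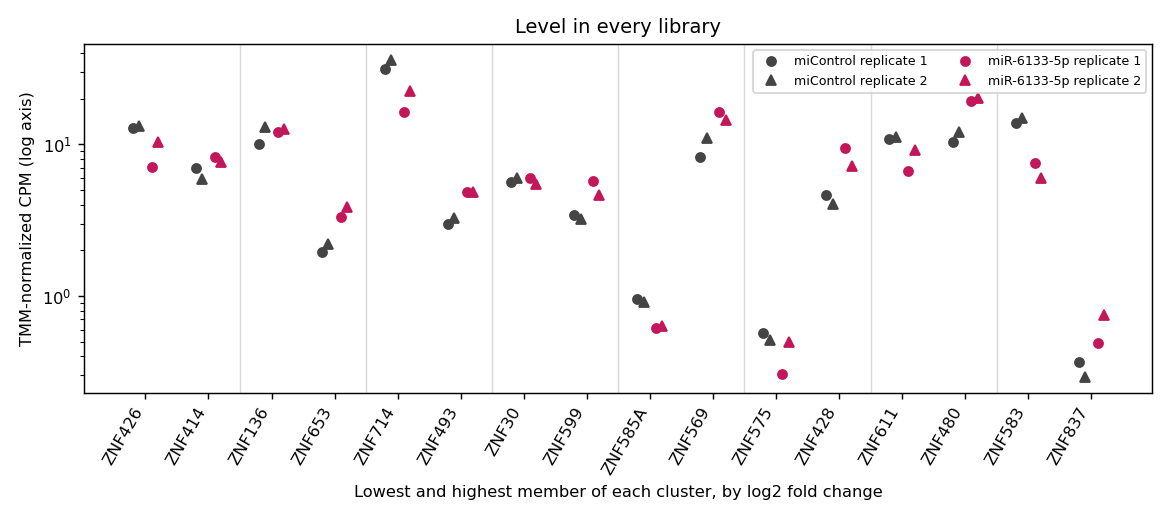
TMM-normalized CPM (vertical log axis) of the members with the lowest and the highest log2 fold change in each of the 8 clusters, 1 point per library, with dots for replicate 1 and triangles for replicate 2. Libraries are to be compared within a gene. In ZNF583, ZNF480 and ZNF428 all miR-6133-5p points lie on 1 side of the miControl points, a condition set for naming called members. The same separation, in either direction, was seen in 64.4% of tested genes.

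Outside the clusters, ZNF473, a subunit of the machinery that cuts histone messenger RNAs, was lower, from 40.7 and 42.0 CPM to 29.2 and 29.4 CPM (-0.50, edgeR adjusted p = 0.00251). ZNF526 and ZNF574 lie side by side and went opposite ways, ZNF526 from 21.3 and 20.9 CPM to 13.7 and 15.8 CPM (-0.52, edgeR adjusted p = 0.00552) and ZNF574 from 12.5 and 11.5 CPM to 15.5 and 16.5 CPM (0.41, edgeR adjusted p = 0.0202). ZNF546 was higher, with a log2 fold change of 0.75.

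The 5 most abundant members by CPM per kilobase of exon had log2 fold changes near 0, apart from ZNF45. ZNF146, a protein made almost only of fingers, was highest at 20.9 CPM per kilobase, against a median of 1.51 over the members. Its libraries were at 74.2 and 96.6 CPM with miControl and 90.7 and 84.8 CPM with miR-6133-5p, and the groups overlapped. ZNF317, ZNF45, ZNF266 and ZNF561 followed at 10.5, 10.2, 7.91 and 6.46 CPM per kilobase. Of these 5 ZNF45, given above, was the single one that passed at an adjusted p under 0.05, and the log2 fold changes of ZNF317, ZNF266 and ZNF561 were -0.06, 0.07 and 0.04.

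**Figure D4:**
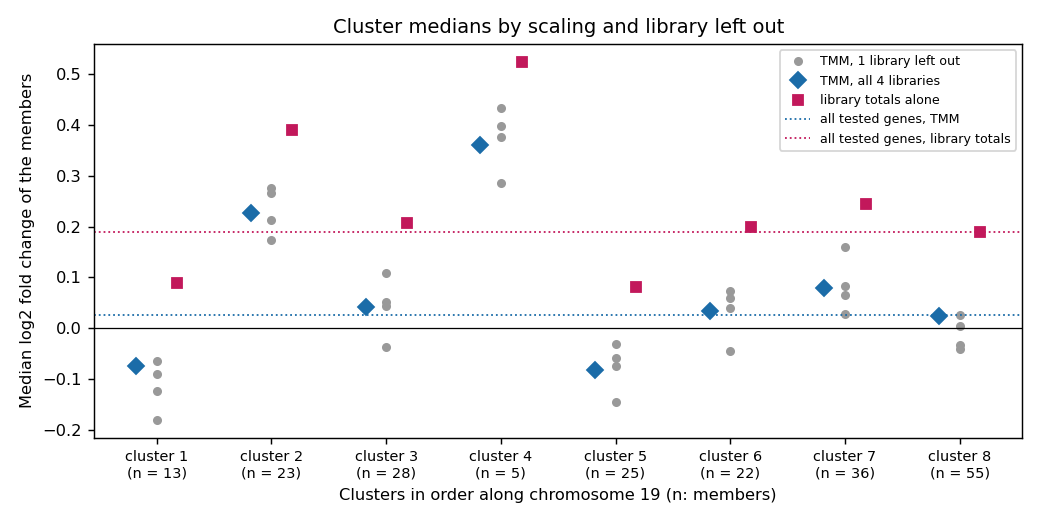
Median log2 fold change of the members (vertical axis) of the 8 clusters in their order along chromosome 19, with TMM scaling (diamonds), with TMM and 1 library left out (grey points) and with library totals alone (squares). Dotted lines mark the median of all tested genes under the same scalings, 0.03 and 0.19. All points of the clusters with n = 23, n = 5 and n = 36 lie above the line of their own scaling. The lines come from fits of all 4 libraries, so grey points are not set against the all-gene median of their own fit. The lowest grey point of n = 36, at 0.029, lies just over the TMM line at 0.026.

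The scaling set where 0 lay. With library totals alone the median of all tested genes was 0.19, and the members' median was 0.24 with 168 above 0, so relative to all genes the members' median differed by about as little as with TMM, where the medians were 0.03 and 0.07.

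Features of the transcripts went only weakly with the fold changes. Across 216 members, Spearman's rho with the log2 fold change was 0.03 for the number of fingers, -0.04 for GC content and -0.24 for the length of the 3′ UTR. In 4 groups of 54 members by 3′ UTR length, from short to long, the median log2 fold changes were 0.09, 0.21, 0.04 and -0.05. The correlation with 3′ UTR length was -0.23 over protein-coding genes with at least 10 counts, -0.29 over the other genes of chromosome 19 and -0.01 over ZNF genes of other chromosomes. Genes are not independent replicates, all points share the same 4 libraries, and no p is given.

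The partners through which KRAB zinc finger proteins silence DNA were read from a list of 33 genes, of which 30 were tested. The list is wider than these partners and also holds other histone and DNA methyltransferases, such as EHMT1, EHMT2, SUV39H2, DNMT1 and DNMT3A. KDM4A, KDM4B, KDM4C, CTCF and ZNF274, itself a member, are on it too. None of the 30 was called, where 5.54% and 2.90% of tested genes were called lower and higher. With library totals alone 4 of them were called higher. At an adjusted p under 0.05, 10 were higher and 2 lower, where 14.1% of tested genes were higher and 16.1% lower. Among protein-coding genes with at least 10 counts in each library 17.98% were higher and 19.6% lower. The 10 included EHMT1, EHMT2, SUV39H2, DNMT1 and DNMT3A. SETDB1 and the HP1 genes CBX1, CBX3 and CBX5 did not pass. TRIM28, the scaffold that KRAB domains bind, was at 224 and 213 CPM with miControl and 369 and 337 CPM with miR-6133-5p (0.69, SE 0.104, edgeR adjusted p = 0.00026). With library totals alone it was called, at 0.85. EHMT2, a histone H3 lysine methyltransferase, was at 45.0 and 41.1 CPM against 68.3 and 73.2 CPM (log2 fold change 0.72). DNMT3A, a DNA methyltransferase, and PPHLN1 (periphilin) of the HUSH silencing complex were also higher, at 0.73 and 0.68.

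TASOR, the scaffold of the HUSH complex, was lower, from 96.8 and 123 CPM to 78.9 and 84.6 CPM (-0.43, edgeR adjusted p = 0.0176), and so was DAXX, a histone chaperone, at -0.46. SETDB1 was at 24.7 and 24.0 CPM with miControl and 22.8 and 26.9 CPM with miR-6133-5p, and its groups overlapped. ZNF274, a member that recruits SETDB1 to the 3′ ends of zinc finger genes, was at 33.8 and 33.6 CPM against 32.2 and 33.7 CPM (log2 fold change -0.03), and its groups overlapped too.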

How the data were processed

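The authors aligned paired reads to GRCh37 with STAR 2.5.3a and deposited whole-number counts per Ensembl gene, without normalization. The submitters' processing notes name featureCounts and Subread 1.6.4, and the annotation release and strand setting are not given in the sources used here. Counts per uniquely mapped pair were 1.68 to 1.70, so mates seem to have been counted singly. The aligner's summary, as deposited, gave pairs mapped to too many loci as a fraction of input pairs. Symbols, positions, coding sequences and linkers came from the GENCODE annotation lifted to GRCh37. A finger was 2 cysteines 2 residues apart and 2 histidines 3 residues apart, with 12 residues between the pairs. Genes were filtered with filterByExpr, scaled by TMM and fitted with glmQLFit and glmQLFTest in edgeR 4.0.16 (R 4.3.3), with Benjamini-Hochberg adjustment over 18252 genes. DESeq2 1.42.0 served as an alternative. With 2 libraries per group an exact permutation test cannot go below p = 0.333, so none is given. Replicates differed by more than counting noise. Members and gene lists were chosen with earlier results of these data known. Named genes were the called members whose groups did not overlap and the lowest and highest of each cluster. The 5 most abundant per kilobase, those next to the floor, and TRIM28 and SETDB1 were named too. Other named members passed at 0.05 or neighbour these and were chosen after their values were seen. Matches to the miRNA seed were not analysed here.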

Additional observations from a re-analysis of the deposited data

How the results depend on the processing

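The number of members called lower was 1 as reported, 2 with RLE size factors, with DESeq2 and with a filter of 10 counts in every library, 0 with glmTreat against the fold change limit, 13 at an adjusted p under 0.05, and 1 to 6 when a library was left out, with 6 without miR-6133-5p replicate 2. The number called higher was 2 as reported, 6 with library totals alone, 0 with glmTreat, 29 at an adjusted p under 0.05, and 0 to 2 when a library was left out, with 0 without miControl replicate 1. With the replicate block 3 members were called lower and 2 higher. The labels do not say whether same-numbered libraries belong together, and the correlation between their deviations was r = 0.049. Why the number called lower rose was not tested. With library totals alone the members' median was 0.24, and 4 genes on the list of KRAB partners and other genes were called higher. The cluster medians with library totals alone were, in order along the chromosome, 0.090, 0.39, 0.21, 0.52, 0.081, 0.20, 0.24 and 0.19. Those at 7.1 to 9.9 Mb and 36.7 to 38.3 Mb thus changed sign. With a gap of 2 Mb the clusters at 7.1 to 9.9 Mb and 11.6 to 12.8 Mb joined, with a median of 0.14, and those at 35.2 to 35.5 Mb and 36.7 to 38.3 Mb joined at 0.0076. Leaving out a library gave -0.18 to -0.066 at 7.1 to 9.9 Mb, -0.036 to 0.11 at 19.8 to 24.3 Mb, -0.046 to 0.072 at 44 to 45.6 Mb and -0.041 to 0.026 at 56.0 to 59.0 Mb, and 0.02 to 0.10 for all members. Signs turned in named genes near 0 that were never called. With totals alone ZNF30 was at 0.15, ZNF317 at 0.10 and ZNF626 at 0.037. As libraries were left out, the ranges were -0.093 to 0.039 for ZNF30, -0.21 to 0.055 for ZNF317, -0.57 to 0.47 for ZNF626, -0.087 to 0.28 for ZNF136, -0.15 to 0.21 for ZNF146, -0.057 to 0.16 for ZNF266, -0.011 to 0.048 for ZNF561 and -0.11 to 0.13 for SETDB1. Apart from the construction of each alternative, the cause was not tested. A fit without 1 library leaves a group of 1, assumed to vary like the other group. Depth limits the scarce members: those near the floor rest on 10 to 58 counts.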
